A study of Homo sapiens with 9 samples.

Results

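The genes described here are 30 listed enzymes and regulators of cholesterol and fatty acid synthesis that are known targets of the SREBP transcription factors or encode them. They were taken from a list by name, and that list was drawn up with earlier results of these data known. They make up 30 of the 58237 genes with a transcript in the data. All 30 were among the 18205 genes with enough reads to be tested. The study used RNA-seq of H358, an established human non-small cell lung carcinoma line grown in RPMI with FBS. There were 3 libraries of the unedited parental line, 3 of a BRG1/SMARCA4 CRISPR knockout and 3 of a BRM/SMARCA2 CRISPR knockout, all in the H358 background. SMARCA4 and SMARCA2 encode BRG1 and BRM, the interchangeable ATPases that drive the SWI/SNF chromatin remodelling complexes. Whether each knockout was a clone or a pool, where the guides cut, and whether the numbered replicates were separate cultures is not stated in the sources used here. The p-values therefore cover the spread among these libraries, which may not be the spread among separate cultures or clones. Every pair of replicates differed by more than sampling noise. The parental line was the only control.

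Cells make cholesterol from acetyl-CoA through the mevalonate pathway, squalene and a series of sterol intermediates, and they make fatty acids from the same precursor through malonyl-CoA. SREBP-1 and SREBP-2, encoded by SREBF1 and SREBF2, are membrane-bound transcription factors that SCAP carries from the endoplasmic reticulum to the Golgi, where proteases release the active part. When sterols are plentiful, INSIG proteins hold SCAP in the endoplasmic reticulum and the pathway's genes are transcribed less. Many lung carcinomas and the surfactant-producing cells of the alveolus express fatty acid synthesis genes at high levels.

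SREBPs bind sterol regulatory elements near gene starts, usually beside sites for NF-Y and Sp1. Promoters of 26 of the 30 genes, spanning 250 bases before to 50 bases after a RefSeq start on GRCh38.p14, were searched on both strands. FASN, FDFT1, SQLE and ACAT2 had no entry. The 5 windows of 200 bases printed here belong to the SREBP genes, which rose in the BRM knockout, to INSIG1, and to MSMO1 and MVD, enzymes that varied more than 1.5-fold between libraries of 1 genotype. Capitals mark the sterol regulatory element (the first capitals in SREBF2), the NF-Y motif CCAAT and the Sp1 motif GGGCGG, each on either strand. ATTGG and CCGCCC are CCAAT and GGGCGG read on the other strand. Overlapping matches were counted, and 1 pair of Sp1 motifs in INSIG1 shares a base. Each window is written 5′ to 3′ on the gene's own strand. They lie at chr22:41832905-41833104 (+), chr17:17836987-17837186 (−), chr7:155297678-155297877 (+), chr4:165327469-165327668 (+) and chr16:88663092-88663291 (−).
SREBF2: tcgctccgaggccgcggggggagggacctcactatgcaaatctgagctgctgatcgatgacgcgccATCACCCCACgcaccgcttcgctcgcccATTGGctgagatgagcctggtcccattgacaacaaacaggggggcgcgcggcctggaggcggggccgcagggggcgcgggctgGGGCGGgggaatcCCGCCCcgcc
SREBF1: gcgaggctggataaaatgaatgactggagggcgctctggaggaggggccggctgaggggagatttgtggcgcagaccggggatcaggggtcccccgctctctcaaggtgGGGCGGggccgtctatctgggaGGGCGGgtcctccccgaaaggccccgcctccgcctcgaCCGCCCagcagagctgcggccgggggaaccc
INSIG1: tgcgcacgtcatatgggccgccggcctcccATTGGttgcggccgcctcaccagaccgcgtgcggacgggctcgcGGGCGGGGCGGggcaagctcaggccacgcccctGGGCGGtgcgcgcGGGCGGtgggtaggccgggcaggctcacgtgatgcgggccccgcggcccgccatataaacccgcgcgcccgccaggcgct
MSMO1: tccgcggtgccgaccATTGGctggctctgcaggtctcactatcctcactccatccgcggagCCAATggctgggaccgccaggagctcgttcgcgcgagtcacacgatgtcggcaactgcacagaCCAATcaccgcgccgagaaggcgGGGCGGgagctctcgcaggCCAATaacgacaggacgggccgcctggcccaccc
MVD: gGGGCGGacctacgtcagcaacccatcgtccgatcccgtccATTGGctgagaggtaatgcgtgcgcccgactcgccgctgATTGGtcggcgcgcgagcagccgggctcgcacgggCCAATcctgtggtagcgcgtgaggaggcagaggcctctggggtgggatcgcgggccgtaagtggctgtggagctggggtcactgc

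Of the 26 genes, SREBF2 alone had the exact sterol regulatory element, which 0.0507% of the 11827 tested genes with a promoter held. The looser form TCACNCCAC was also found in SREBF2 alone, against 1.49% of the tested genes. The shorter core CACCCCAC, added after the data were seen, was again in SREBF2 only, against 3.71%. CCAAT was in 21 of the 26 genes (80.8%) and in 42.4% of the tested genes, and 14 genes (53.8%) had it at least 2 times, against 15.7%. GGGCGG was in 25 genes (96.2%) and in 74.3% of the tested genes, and 15 genes (57.7%) had it at least 2 times, against 50.7%. The E-box CACGTG was in INSIG1, LSS and SC5D (11.5%), against 12.2%. The DR4 motif of the LXR receptors was in none of the 26 and in 0.00846% of the tested genes. CACGTG is not in capitals. These counts describe letters in the windows, not bound sites.

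Estimated reads per library ranged from 31969961 to 40679073. The targeted genes followed their labels. SMARCA4 was at 212 to 244 CPM (reads per 1e+06 reads, scaled with TMM factors) in the parental libraries and at 21.2 to 23.9 in the BRG1 knockout. SMARCA2 was at 49.3 to 58.0 CPM in the parental libraries and at 9.36 to 12.01 in the BRM knockout. The BRG1 knockout stood apart in cell type markers. Of 6 epithelial markers 5 were lower (against 21.9% of all genes tested), and of 6 tested fibroblast markers 4 were higher (against 21.6%). In the BRM knockout no epithelial marker passed, where 37.4% of all genes did. There COL1A1 rose and PDGFRA, a gene of low level, fell among the fibroblast markers. The BRG1 knockout libraries also differed among themselves, with KRT19 at 123, 220 and 0.28 CPM and COL3A1 at 84.5, 109 and 739 CPM. The 3 endothelial markers stayed at or below 3.2 CPM in every library. Of 4 blood cell markers, CD3E and MS4A1 had too few reads to be tested and PTPRC stayed at or below 0.6 CPM. CD68, the macrophage marker among them, was at 17.2, 20.3 and 13.5 CPM in the parental libraries, 10.6, 11.4 and 8.13 in the BRG1 knockout, and 16.0, 54.8 and 25.6 in the BRM knockout, highest in BRM knockout replicate 2. Its part in the results below was not tested. In bulk RNA, fewer cells of a type and less RNA per cell cannot be told apart.

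Per unit of transcript length, FASN and SCD were the most abundant of the 30 in parental cells. FASN, the fatty acid synthase, averaged 592 ± 199.9 TPM (SD, n = 3). SCD, the stearoyl-CoA desaturase, averaged 343 ± 78.2 TPM, and FDPS, which makes farnesyl diphosphate, 294 ± 91.2 TPM. FDFT1, squalene synthase, followed at 197 ± 80.7 TPM, SREBF1 at 178 ± 14.2 and EBP, a sterol isomerase, at 166 ± 6.77, and each of these 6 overlapped its neighbour in the order within 1 SD. The lowest were TM7SF2 at 20.4 ± 13.3, ACSS2 at 20.8 ± 12.8, HSD17B7 at 21.4 ± 6.32 and ACAT2 at 23.4 ± 2.37 TPM. In the BRM knockout SREBF1 reached 424 ± 48.3 TPM, beside 471 ± 165 for FASN and 388 ± 63.1 for SCD. With BRG1 loss, FASN averaged 210.2 ± 24.9 TPM, below FDPS at 253 ± 14.2 and near SCD at 249 ± 71.1. HSD17B7 has a near-identical pseudogene copy, so its reads are uncertain.

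**Figure D1:**
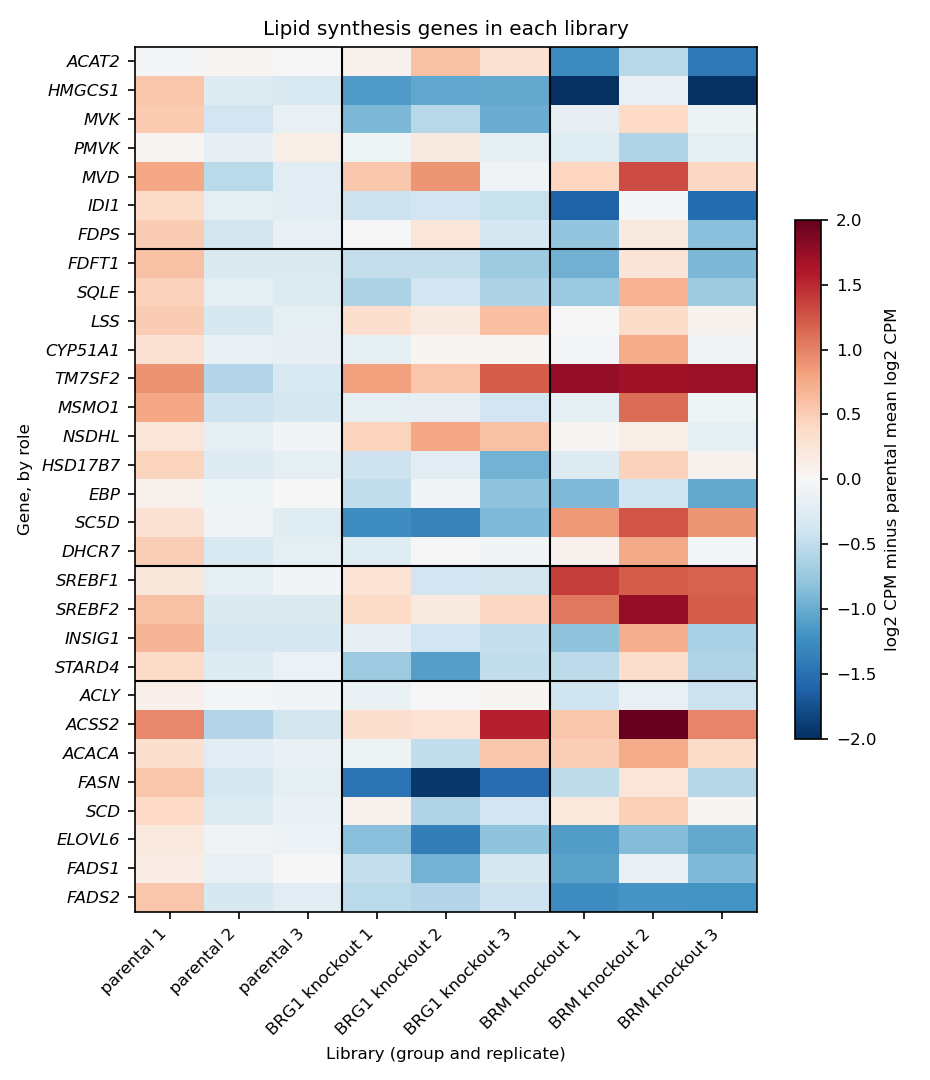
Level of each of the 30 genes (rows, grouped by role: mevalonate segment, squalene and sterol segment, regulators and sterol carrier, fatty acid segment) in each of the 9 libraries (columns), as log2 CPM minus the parental mean. Parental replicate 1 is red in nearly every row, BRM knockout replicate 2 is redder than BRM replicates 1 and 3 in most rows, and SREBF1, SREBF2, TM7SF2 and SC5D are red in all 3 BRM knockout libraries.

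In the BRG1 knockout against parental, 6 of the 30 genes passed the test (edgeR, adjusted p under 0.05), where 43.5% of all genes tested passed. NSDHL rose (1 gene higher, against 21.6% of all genes), and MVK, SC5D, STARD4, FASN and ELOVL6 fell (5 lower, against 21.9%). The median log2 fold change of the 30 was -0.32, beside -0.0082 over all genes tested. In the BRM knockout against parental, 8 of 30 passed, where 37.4% of all genes passed. SREBF1, SREBF2, TM7SF2 and SC5D rose (4 higher, against 21% of all genes), and ACAT2, EBP, ELOVL6 and FADS2 fell (4 lower, against 16.4%). The median was -0.07, beside 0.093 over all genes. In the BRG1 knockout against the BRM knockout, 8 of 30 passed, where 45.3% of all genes passed, 3 of them higher (against 21.6%) and 5 lower (against 23.8%), with a median of -0.29 beside -0.0016. In each comparison with all 9 libraries, the share of the 30 genes that passed was not above that of all genes. The calls below are therefore read as those of single genes. Without BRM knockout replicate 2, 10 of the 30 were lower in the BRM knockout, against 13.6% of all genes, and 4 higher, against 17.2%. That library was the highest of its genotype in 27 of the 30 genes, against 39.2% of all genes. Leaving it out lowers the BRM knockout mean of most listed genes, so these counts do not test the list as a set.

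The ranges of the libraries were also compared. The BRG1 knockout libraries lay wholly outside the parental range for 13 of the 30 genes, against 53.2% of all genes tested, with 2 above (against 26.1%) and 11 below (against 27.1%). The BRM knockout libraries did so for 12 genes, against 58.1%, with 5 above (against 32.1%) and 7 below (against 26.1%). The BRG1 and BRM knockout libraries did not overlap for 10 genes, against 55.1%, with the BRG1 knockout above in 4 (against 26.5%) and below in 6 (against 28.6%). Both knockouts were compared with the same parental libraries, so their values are set side by side and not counted as independent.

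Among the regulators, both SREBP genes were higher in the BRM knockout and neither passed in the BRG1 knockout. SREBF1 (ENSG00000072310.16, hg38 chr17:17810399-17837002) encodes SREBP-1, an activator of fatty acid synthesis genes. Its level was 341, 257.5 and 281 CPM in parental replicates 1 to 3, 350.2, 224 and 226 in the BRG1 knockout, and 761, 671 and 657 in the BRM knockout. Every BRM knockout library lay above every other library. The rise was 1.25 ± 0.20 on the log2 scale against parental (SE, edgeR adjusted p = 0.00099), and the BRG1 knockout was lower than the BRM knockout by a log2 fold change of -1.38 ± 0.20 (adjusted p = 0.00027). Against parental, the BRG1 knockout was at -0.14 ± 0.20 (adjusted p = 0.60).

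SREBF2 (ENSG00000198911.11, chr22:41833079-41907308) encodes SREBP-2, the main activator of cholesterol synthesis genes, and its promoter holds the element printed above. It was at 428.5, 234 and 235 CPM in the parental libraries, 373.5, 326 and 381 in the BRG1 knockout, and 598, 965 and 662 in the BRM knockout. The BRM knockout libraries were all higher than the rest, while the highest parental library lay above every BRG1 knockout library. The BRM knockout rose by 1.31 ± 0.26 (adjusted p = 0.0031), and the BRG1 knockout against the BRM knockout was at -1.04 ± 0.26 (adjusted p = 0.0075), a difference lost without BRG1 knockout replicates 1 and 2 (adjusted p = 0.13). The BRG1 knockout against parental was at 0.27 ± 0.26 (adjusted p = 0.43), and without parental replicate 1 it passed at 0.62 (adjusted p = 0.046).

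INSIG1, which retains SCAP in the endoplasmic reticulum and is itself an SREBP target, passed in no comparison. It was at 132, 65.1 and 65.2 CPM in the parental libraries, 73.4, 63.4 and 60.0 in the BRG1 knockout, and 47.1, 136 and 52.4 in the BRM knockout. Parental replicate 1 and BRM knockout replicate 2 were each more than 1.5-fold above the other libraries of their genotype, and the 3 groups overlapped. The log2 fold changes were -0.41 ± 0.41 for the BRG1 knockout (adjusted p = 0.44) and -0.15 ± 0.41 for the BRM knockout (adjusted p = 0.79). STARD4, a carrier of cholesterol between membranes, averaged 57.7 ± 13.9 CPM (SD, n = 3) in parental cells and 33.6 ± 6.91 in the BRG1 knockout, and fell by 0.78 ± 0.28 (adjusted p = 0.042). That call was lost in 9 of 23 alternative analyses.

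**Figure D2:**
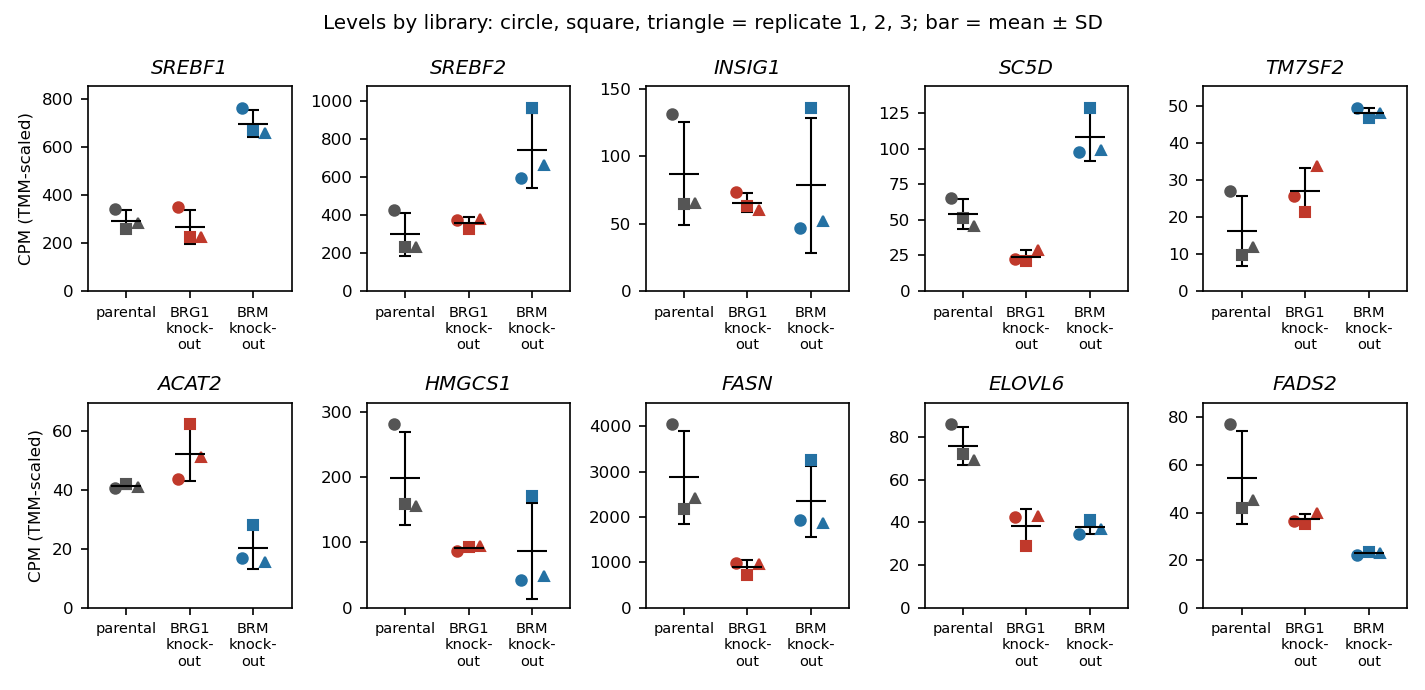
CPM of 10 of the listed genes by genotype. Points are libraries (circle, square and triangle for replicates 1, 2 and 3) and bars are the mean ± SD of 3 libraries, and each axis starts at 0. SREBF1, SREBF2, SC5D and TM7SF2 in the BRM knockout, and FASN and SC5D in the BRG1 knockout, lie outside the parental range, while for INSIG1 and HMGCS1 1 library of the parental and 1 of the BRM knockout lie far above their replicates.

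SC5D (ENSG00000109929.9, chr11:121292453-121308694), the lathosterol desaturase near the end of the pathway, changed in opposite directions. It was at 65.6, 51.3 and 45.4 CPM in the parental libraries, 22.5, 21.1 and 29.1 in the BRG1 knockout, and 97.8, 128.5 and 98.9 in the BRM knockout. No 2 groups overlapped. It fell by 1.16 ± 0.19 in the BRG1 knockout (adjusted p = 0.00076) and rose by 1.00 ± 0.19 in the BRM knockout (adjusted p = 0.0024). The direct difference, BRG1 knockout against BRM knockout, was -2.16 ± 0.20 (adjusted p = 1.3e-05). All 3 calls were kept in all 23 alternatives.

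TM7SF2, a sterol C14 reductase, was higher in the BRM knockout. The parental libraries were at 27.2, 9.73 and 11.9 CPM, those of the BRG1 knockout at 25.8, 21.5 and 33.8, and those of the BRM knockout at 49.5, 46.7 and 48.3. The BRM knockout libraries were the 3 highest, and the parental and BRG1 knockout libraries overlapped through parental replicate 1. It rose by 1.57 ± 0.34 in the BRM knockout (adjusted p = 0.0048). The BRG1 knockout was at 0.74 ± 0.33 (adjusted p = 0.098), and without parental replicate 1 it passed at 1.32 (adjusted p = 0.0011). The direct difference was -0.83 ± 0.33 (adjusted p = 0.062), and without parental replicate 1 it passed with an adjusted p of 0.0047. LBR, the other C14 reductase of the pathway and not among the 30, fell in both knockouts, from 104 ± 3.71 CPM to 49.1 ± 13.6 with BRG1 loss (log2 -1.08 ± 0.21, adjusted p = 0.0019) and 48.3 ± 10.2 with BRM loss (log2 -1.11 ± 0.21, adjusted p = 0.0023).

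The other enzymes from squalene to cholesterol mostly did not pass. NSDHL, a sterol dehydrogenase, averaged 30.03 ± 4.56 CPM (SD, n = 3) in parental cells, 45.5 ± 5.11 in the BRG1 knockout and 29.7 ± 3.3 in the BRM knockout. It rose by 0.60 ± 0.16 in the BRG1 knockout (adjusted p = 0.012) and was higher there than in the BRM knockout by 0.61 ± 0.16 (adjusted p = 0.010). The first of these calls was lost without parental replicate 2 or 3 or BRG1 knockout replicate 2. The second was lost without BRM knockout replicate 3 (adjusted p = 0.055) and with the replicate block and GC content and length correction together (adjusted p = 0.072). EBP averaged 63.2 ± 3.74 CPM in parental cells and 37.8 ± 9.07 in the BRM knockout, and fell by 0.74 ± 0.22 (adjusted p = 0.020), a call lost without parental replicate 1 or 3 or BRM knockout replicate 3. FDFT1, SQLE, LSS, CYP51A1, MSMO1, HSD17B7 and DHCR7 passed in no comparison, with log2 fold changes from -0.62 (FDFT1) to 0.34 (LSS) in the BRG1 knockout and from -0.48 (FDFT1) to 0.30 (MSMO1) in the BRM knockout. SQLE, squalene epoxidase, illustrates their spread, since it was at 264, 169 and 159 CPM in the parental libraries and at 115, 312 and 117 in the BRM knockout.

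In the mevalonate segment, ACAT2, a cytosolic thiolase that joins 2 acetyl-CoA molecules, was lower in the BRM knockout. It was at 40.8, 42.2 and 40.9 CPM in the parental libraries, 43.8, 62.2 and 51.1 in the BRG1 knockout, and 17.03, 28.0 and 15.4 in the BRM knockout. All BRM knockout libraries lay below the other 6, and all BRG1 knockout libraries lay above the parental ones. It fell by 1.03 ± 0.23 in the BRM knockout (adjusted p = 0.0048), and the BRG1 knockout exceeded the BRM knockout by 1.38 ± 0.23 (adjusted p = 0.00061). Its 3′ end overlaps TCP1 on the opposite strand over 397 exon bases, 9.23% of its exons, and TCP1 fell in the BRM knockout by 1.01 ± 0.15 (adjusted p = 0.00068). The strand setting of the quantification is not given, so reads in the overlap may belong to either gene.

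MVK, mevalonate kinase, averaged 44.8 ± 15.2 CPM (SD, n = 3) in parental cells, 24.8 ± 3.99 in the BRG1 knockout and 45.4 ± 10.2 in the BRM knockout. It fell by 0.85 ± 0.25 in the BRG1 knockout (adjusted p = 0.017), and the direct difference was -0.87 ± 0.25 (adjusted p = 0.015). Without parental replicate 1 the first was -0.55 (adjusted p = 0.067). The direct difference of MVK was lost without BRG1 knockout replicate 1 (adjusted p = 0.05001), without BRM knockout replicate 2 (adjusted p = 0.064) and without BRG1 knockout replicates 1 and 2 (adjusted p = 0.068). MMAB, which starts beside MVK on the opposite strand and overlaps 306 of its exon bases, fell by 0.57 ± 0.18 in the BRG1 knockout (adjusted p = 0.025).

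HMGCS1, the HMG-CoA synthase that feeds the pathway, had lower means in both knockouts that did not pass. It was at 280.2, 159 and 155 CPM in the parental libraries, 86.8, 92.6 and 93.8 in the BRG1 knockout, and 42.0, 171 and 47.7 in the BRM knockout. The BRG1 knockout libraries all lay below the parental ones, and in the BRM knockout only replicate 2 reached the parental range. The log2 fold changes were -1.12 ± 0.49 (adjusted p = 0.088) and -1.19 ± 0.49 (adjusted p = 0.082). Without BRM knockout replicate 2 both passed, at -1.12 (adjusted p = 0.0035) in the BRG1 knockout and at -2.14 (adjusted p = 0.00068) in the BRM knockout. For the BRG1 knockout the libraries compared stayed the same, but the filter, scaling, estimated spread and adjustment were redone without that library. Without parental replicate 1 neither knockout passed, at -0.79 (adjusted p = 0.27) and -0.85 (adjusted p = 0.24). IDI1, the isopentenyl diphosphate isomerase, was at 23.7, 71.0 and 25.0 CPM in the BRM knockout beside 62.7 to 95.3 in the parental libraries. Its change was -0.89 ± 0.38 (adjusted p = 0.087), and without BRM knockout replicate 2 it was -1.60 (adjusted p = 0.00074). PMVK, MVD and FDPS passed in no comparison, with log2 fold changes against parental from -0.45 (FDPS) to 0.66 (MVD), both in the BRM knockout.

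**Figure D3:**
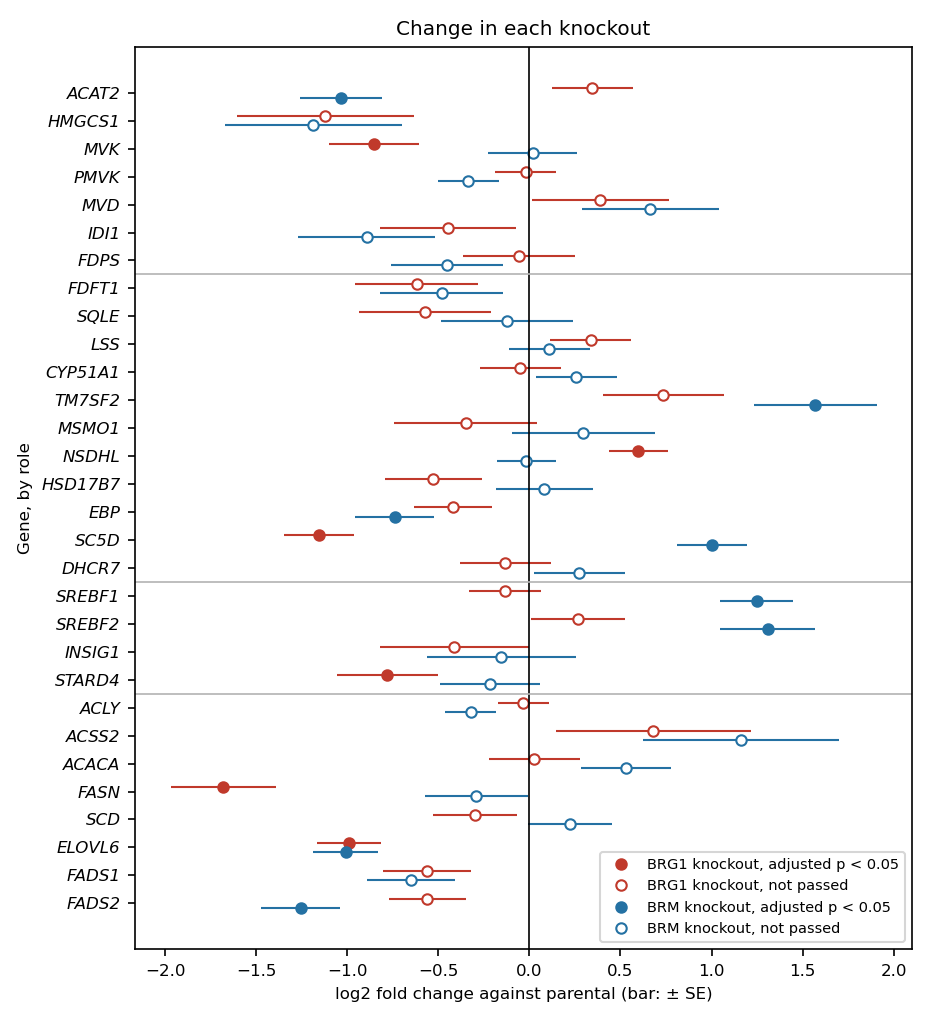
Log2 fold change (x axis) of the 30 genes in each knockout against the same 3 parental libraries, with bars for ± SE and filled points for an adjusted p under 0.05. SC5D is filled on opposite sides of 0, ELOVL6 is filled at nearly the same place in both, FASN is filled only in the BRG1 knockout and SREBF1 and SREBF2 only in the BRM knockout, each of these last 3 with a direct difference that passed.

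In the fatty acid segment, FASN (ENSG00000169710.8, chr17:82078333-82098332) had the largest fall of the 30 genes in the BRG1 knockout. The parental libraries held 4038, 2165 and 2412 CPM of FASN, with 994, 727 and 965 CPM in the BRG1 knockout and 1933.5, 3250.5 and 1857 in the BRM knockout. The BRG1 knockout libraries lay below the other 6, and the BRM knockout overlapped the parental line. It fell by 1.68 ± 0.29 in the BRG1 knockout (adjusted p = 0.00094), a 3.21-fold lower level, and was at -0.29 ± 0.28 in the BRM knockout (adjusted p = 0.45). The direct difference was -1.39 ± 0.29 (adjusted p = 0.0026), and it was lost only when BRG1 knockout replicates 1 and 2 were both left out.

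ELOVL6, which elongates the C16 product of fatty acid synthase, fell in both knockouts. It was at 86.0, 72.0 and 69.5 CPM in the parental libraries, 42.4, 29.02 and 43.1 in the BRG1 knockout, and 34.8, 41.3 and 37.0 in the BRM knockout. Both knockouts lay wholly below the parental range and overlapped each other. The falls were 0.99 ± 0.18 (adjusted p = 0.0012) and 1.01 ± 0.18 (adjusted p = 0.0016), and the direct difference was 0.02 ± 0.18 (adjusted p = 0.94).

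FADS2, the first desaturase of polyunsaturated fatty acid synthesis, was lowest in the BRM knockout. It was at 77.0, 42.0 and 45.1 CPM in the parental libraries, 36.4, 35.1 and 39.7 in the BRG1 knockout, and 22.3, 23.4 and 23.0 in the BRM knockout. The 3 groups did not overlap. It fell by 1.26 ± 0.22 in the BRM knockout (adjusted p = 0.0014), was at -0.56 ± 0.21 in the BRG1 knockout (adjusted p = 0.052), and was higher in the BRG1 than in the BRM knockout by 0.70 ± 0.21 (adjusted p = 0.021), a difference lost without BRM knockout replicate 2 or 3. FEN1, a replication nuclease, shares 49 exon bases with FADS2 on the same strand and fell by 2.88 ± 0.36 in the BRM knockout (adjusted p = 0.00033), and any part of this in the FADS2 value was not tested. FADS1, the neighbouring desaturase, did not pass at -0.56 ± 0.24 (adjusted p = 0.082) and -0.65 ± 0.24 (adjusted p = 0.056). Without BRM knockout replicate 2 it passed in the BRM knockout at -0.97 (adjusted p = 0.0070).

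The remaining 4 enzymes of this segment passed in no comparison. ACLY, which makes cytosolic acetyl-CoA from citrate, was at -0.03 ± 0.14 in the BRG1 knockout and -0.32 ± 0.14 in the BRM knockout. ACACA, acetyl-CoA carboxylase, was at 0.03 ± 0.25 and 0.53 ± 0.25, and SCD at -0.30 ± 0.23 and 0.22 ± 0.23. ACSS2, which makes acetyl-CoA from acetate, was at 0.68 ± 0.53 and 1.16 ± 0.54. Its libraries ranged from 18.4 to 54.1 CPM in parental cells, from 33.5 to 81.9 in the BRG1 knockout and from 40.4 to 115 in the BRM knockout. So FASN fell with BRG1 loss without a call for the gene totals of ACLY and ACACA, which act before it, or of SCD. ELOVL6, which acts on the FASN product, fell as well. The ACACA and ACLY totals each sum more than 1 transcript. Among these, ACACA-231 took 88.4%, 89.1% and 91.5% of ACACA reads in parental replicates 1 to 3. Its shares for BRG1 knockout replicates 1 to 3 were 42.6%, 14.8% and 90.0%. ACLY-201 took 76.9%, 71.8% and 75.1% of ACLY reads in parental replicates 1 to 3. In BRG1 knockout replicates 1 to 3 it took 41.8%, 33.0% and 53.3%. Changes in the levels of ACACA-231 and ACLY-201 were not tested.

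In the parental line and the BRM knockout, 1 library of each stood above its replicates in most of the 30 genes. Parental replicate 1 was the highest parental library in 28 of the 30 genes, against 45.1% of all genes tested. It was more than 1.5-fold above the mean of the other parental libraries in 17 of 30, against 9.76% of all genes. BRM knockout replicate 2 was the highest BRM knockout library in 27 of 30, against 39.2%, and more than 1.5-fold above the mean of the others in 16 of 30, against 7.11%. No BRG1 knockout library stood out in this way over the 30 genes together. Replicates 1, 2 and 3 were highest in 4, 14 and 12 genes, against 29.6%, 33.2% and 37.2% of all genes tested. They exceeded 1.5-fold in 1, 2 and 2, against 7.17%, 7.84% and 13.1%. The roles differed in the BRG1 knockout. Replicate 2 was highest in 6 of 7 mevalonate genes and 8 of 11 squalene and sterol genes. It was highest in 0 of 8 fatty acid genes, where replicate 3 was highest in 6. The 30 genes together took 1.02%, 0.617% and 0.675% of the reads in the parental libraries, 0.534%, 0.425% and 0.486% in the BRG1 knockout, and 0.67%, 1.00% and 0.633% in the BRM knockout.

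Excess of more than 1.5-fold in both of those libraries was found for 11 of the 30 genes (36.7%) and for 234 of 18205 genes tested (1.29%). The 11 were HMGCS1, MVD, FDPS, FDFT1, SQLE, MSMO1, DHCR7, SREBF2, INSIG1, ACSS2 and FASN, which span all 4 roles. HMGCS1 was 1.78-fold above the other parental libraries and 3.8-fold above the other BRM knockout libraries. INSIG1 was 2.02-fold and 2.72-fold above, MSMO1, a sterol methyl oxidase, 2.22-fold and 2.39-fold, and ACSS2 2.68-fold and 2.43-fold. These genes were named after their values were seen. PMVK, the phosphomevalonate kinase, did not take part, at 1.06-fold and 0.769-fold, and SREBF1 and TM7SF2 were above in parental replicate 1 (1.27-fold and 2.46-fold) but not in BRM knockout replicate 2 (0.949-fold and 0.956-fold). Across the 30 genes the log2 excess in parental replicate 1 and in BRM knockout replicate 2 had a Pearson r of 0.39, and across all genes tested 0.05. Genes are not independent replicates, and each excess comes from 1 library.

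Of 72 other lipid genes listed for comparison, NPC1, which exports cholesterol from lysosomes (1.51-fold and 1.78-fold), and ACSL1, an acyl-CoA synthetase (1.85-fold and 1.52-fold), showed this excess in both libraries. Those libraries also differed in dividing cells' genes. The summed level of 8 cell division markers was 1701 CPM in parental replicate 1, below 2314 and 2168 in replicates 2 and 3, and 499.9 CPM in BRM knockout replicate 2, above 134 and 139 in replicates 1 and 3. All 8 of these markers fell in the BRM knockout against parental (against 16.4% of all genes tested). In the BRG1 knockout 3 of the 8 fell (against 21.9%), with a median log2 fold change of -1.33 beside -0.0082 over all genes. The part of cell division in the excess of the listed genes was not tested.

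**Figure D4:**
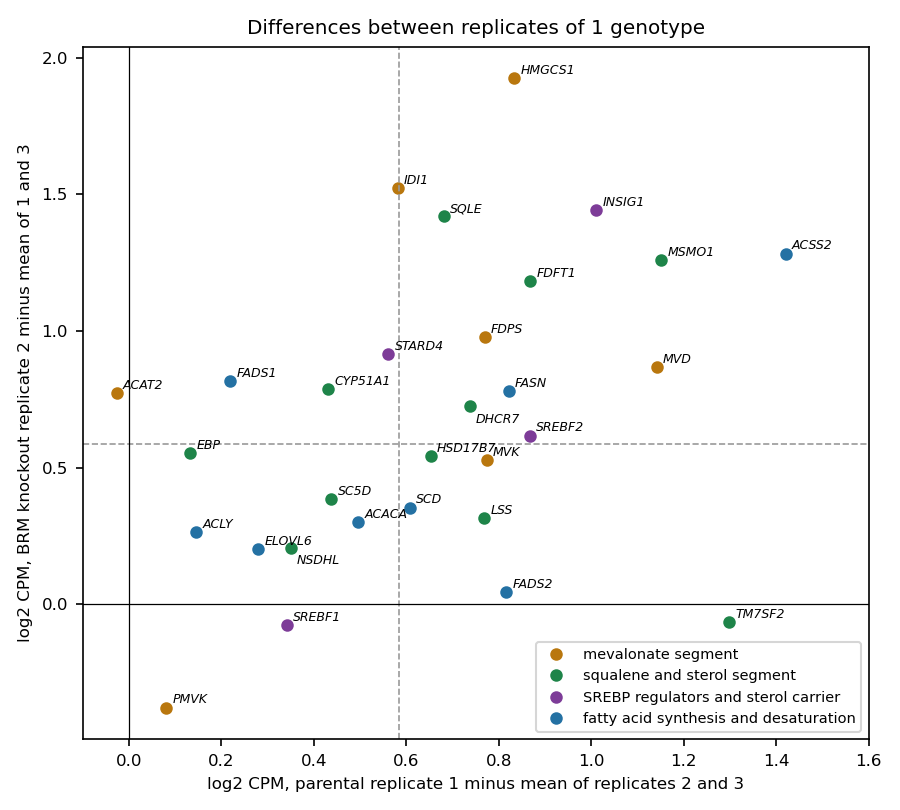
Excess of parental replicate 1 over the mean of parental replicates 2 and 3 (x axis) and of BRM knockout replicate 2 over the mean of BRM knockout replicates 1 and 3 (y axis), as differences in log2 CPM, for the 30 genes coloured by role. Dashed lines mark 1.5-fold. The upper right area holds 11 genes from all 4 roles, and ACAT2, PMVK, SREBF1 and TM7SF2 lie below 0 on 1 of the axes.

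Leaving out single libraries moved the counts. Parental replicate 1 and BRM knockout replicate 2 were the highest of their genotype in most listed genes. Leaving either out therefore lowers the mean of its genotype for those genes. Without parental replicate 1 the BRG1 knockout had 4 genes higher and 3 lower, with a median of -0.0055, where 20.3% and 19.2% of all genes tested passed in each direction. Without BRM knockout replicate 2 the BRM knockout had 4 genes higher and 10 lower, where 17.2% and 13.6% of all genes passed. The 6 genes added to the lower side were HMGCS1, IDI1, FDPS, FDFT1, SQLE and FADS1. FDPS then passed at -0.85, FDFT1 at -0.99 and SQLE at -0.76. The BRG1 knockout had 8 lower genes in that analysis, the added ones being HMGCS1, SQLE and FADS1, where 21.3% of all genes passed as lower. The median of BRG1 against BRM knockout was 0.080 in place of -0.29. No alternative reversed the sign of a call.

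Some whole-library values set BRG1 knockout replicates 1 and 2 apart from the other libraries. The share of reads on ribosomal protein genes was 10.1%, 10.7% and 5.81% in the BRG1 knockout libraries, beside 4.97% to 5.79% in the parental libraries and 6.19% to 6.30% in the BRM knockout, which lay above the parental range and above BRG1 knockout replicate 3. Reads on transcripts under 1000 bases made up 15.9%, 17.3% and 11.1% in the BRG1 knockout, 12.2% to 13.1% in the parental libraries and 12.3% to 12.6% in the BRM knockout, so that BRG1 knockout replicate 3 lay below all others. Within the listed genes, replicates 1 and 2 also differed in which transcript took the reads. ACACA-245, which starts at an internal position (chr17:37205812), held 50.5%, 77.7% and 5.97% of ACACA reads in the BRG1 knockout, beside 3.0% to 7.38% in the parental libraries. SQLE-206 held 9.43%, 24.8% and 0% of SQLE reads in those libraries, and ACLY-207 held 14.5%, 27.3% and 0% of ACLY reads. The part of these whole-library differences in the levels of the listed genes was not tested. FASN, SC5D and ELOVL6 kept their calls against parental when replicates 1 and 2 were left out together, with 1 BRG1 knockout library left that was assumed to vary like the other groups. NSDHL also kept its call (adjusted p = 0.047), while MVK (adjusted p = 0.061) and STARD4 (adjusted p = 0.37) lost theirs. Of the direct differences, those of MVK (adjusted p = 0.068), SREBF2 (adjusted p = 0.13) and FASN (adjusted p = 0.072) were lost.

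SREBF1 is transcribed from more than 1 start, and its products differ in strength. Transcripts starting within 300 bases of the most upstream start (chr17:17837002) carried 84.0%, 85.9% and 88.9% of SREBF1 reads in the parental libraries, 79.6%, 74.4% and 86.6% in the BRG1 knockout, and 83.3%, 75.9% and 82.3% in the BRM knockout. All BRM knockout shares lay below the parental ones, the nearest being 83.3% and 84.0%, and the BRG1 knockout overlapped both groups. The upstream start thus carried most SREBF1 reads in all 9 libraries. RAI1, which overlaps 556 exon bases of SREBF1 on the opposite strand, rose by 0.79 ± 0.16 in the BRM knockout (adjusted p = 0.0033).

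The machinery that processes SREBPs was counted on its own list of 10 genes. With BRG1 loss 3 rose (against 21.6% of all genes tested) and 2 fell (against 21.9%), so that 5 of 10 passed where 43.5% of all genes did. MBTPS1, the Golgi protease that makes the first cut in SREBPs, rose from 188 ± 18.6 to 511 ± 78.5 CPM (log2 1.44 ± 0.16, adjusted p = 5.4e-05). RNF139, a ubiquitin ligase of the endoplasmic reticulum, fell by 0.59 ± 0.15 (adjusted p = 0.0093). In the BRM knockout 2 rose (against 21%) and 1 fell (against 16.4%). There MBTPS1 rose by 0.77 ± 0.16 (adjusted p = 0.0032), ERLIN2, which binds SCAP complexes, by 0.88 ± 0.15 (adjusted p = 0.0011), and ERLIN1 fell by 0.54 ± 0.16 (adjusted p = 0.019).

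Of 12 isoprenoid and sterol enzymes outside the list, 1 rose and 4 fell in the BRG1 knockout, where 21.6% of all genes tested rose and 21.9% fell. In the BRM knockout 3 rose and 4 fell, where 21% of all genes rose and 16.4% fell. PDSS1 and COQ2, which make coenzyme Q from the pathway's isoprenoids, fell in the BRM knockout by 2.04 ± 0.28 (adjusted p = 0.00048) and 1.30 ± 0.19 (adjusted p = 0.00065).

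Of 15 genes of sterol uptake, storage and efflux, 5 rose and 5 fell in the BRG1 knockout, and 2 rose and 1 fell in the BRM knockout. For this list and the next ones, the shares of all genes tested were 21.6% higher and 21.9% lower in the BRG1 knockout and 21% and 16.4% in the BRM knockout. LIPA, the lysosomal lipase, rose by 1.84 ± 0.17 in the BRG1 knockout (adjusted p = 1.7e-05), and NPC1 fell there by 1.33 ± 0.28 (adjusted p = 0.0032). ABCA1, the cholesterol exporter, fell in both, by 1.43 ± 0.27 (adjusted p = 0.0017) and 1.52 ± 0.27 (adjusted p = 0.0017). Of 23 genes of fatty acid elongation, activation and glycerolipid assembly, 4 rose and 8 fell in the BRG1 knockout, and 5 rose and 2 fell in the BRM knockout. SCD5, a second stearoyl-CoA desaturase, rose from 8.31 ± 2.68 to 86.4 ± 16.0 CPM in the BRG1 knockout (log2 3.38 ± 0.26, adjusted p = 6.3e-06) and to 46.0 ± 9.6 in the BRM knockout (log2 2.47 ± 0.26, adjusted p = 0.00014), while SCD itself did not pass. Of 12 fatty acid oxidation genes, 3 rose and 1 fell in the BRG1 knockout, and 5 rose and 1 fell in the BRM knockout. PPARA, the nuclear receptor for fatty acids, rose by 1.76 ± 0.38 (adjusted p = 0.0039) and 2.38 ± 0.39 (adjusted p = 0.0012).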

How the data were processed

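RNA-seq of 9 H358 libraries, 3 per genotype, was analysed from Salmon output. Each deposited file lists estimated counts and TPM for 203835 transcripts of 1 library, per the file headers. Salmon, DESeq2 and the hg38 build are named in the submitters' processing notes. The sources used here do not give versions, strand or bias settings. Here the deposited estimated counts were summed per GENCODE 29 gene and rounded. The 89 transcripts without a gene, at most 0.0193% of a library, were left out. TPM, which the authors' Salmon run scaled per length, were summed per gene and used for levels between genes only.

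Counts of 18205 genes kept by filterByExpr were scaled with TMM and tested with the two-sided quasi-likelihood test of edgeR 4.0.16 (R 4.3.3), with a mean for each group and all 9 libraries in 1 fit (6 residual degrees of freedom, common biological coefficient of variation 0.253). P-values were adjusted by the Benjamini-Hochberg method across those genes, with 0.05 as the threshold. SE was computed as |log2 fold change| over the root of F. Group values are the mean ± SD of 3 libraries. The excess of a library over the others of its genotype was computed on log2(CPM + 0.5). The fit was tested on simulated data that had the same spread in all genes and libraries, smaller than the common value of these data. That test does not cover libraries that stand apart from their replicates. Motifs were matched in RefSeq promoters (GRCh38.p14).

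All 30 genes are accounted for. Library values are given for those with a called log2 fold change of at least 1, for SREBF1, SREBF2 and INSIG1, and for HMGCS1, IDI1, SQLE and ACSS2, which were added after their values were seen. Other lipid genes are named if among the 3 largest called changes of their list and comparison, with at least 10 CPM in the higher group, and LBR is named beside TM7SF2. Some genes that meet this rule are not reported here. Members and lists were chosen with earlier results of these data known. The 23 alternatives used DESeq2 1.42.0, limma 3.58.1, other scaling and filters, a GC content and length correction, a replicate block, and libraries left out. No pair of replicates differed by less than the sampling noise.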

Additional observations from a re-analysis of the deposited data

How the results depend on the processing

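Counts of listed genes called were within 1.5 times the reported ones, and medians moved by less than the spread between libraries, in all of the 23 alternatives other than those named here, and no sign of a call was reversed. Leaving out 1 library gave 0 to 4 genes higher and 3 to 8 lower in the BRG1 knockout against parental (reported 1 and 5), 4 to 6 and 3 to 10 in the BRM knockout against parental (reported 4 and 4), and 1 to 5 and 4 to 7 in the BRG1 against the BRM knockout (reported 3 and 5). The medians then ran from -0.44 to -0.0055, from -0.23 to 0.20 and from -0.47 to 0.080. Of all genes tested, 15.7% to 21.3% were higher and 16.8% to 26.7% lower in the BRG1 knockout in those fits. For the BRM knockout these shares were 13.1% to 21.4% and 11.1% to 22.2%. For the BRG1 against the BRM knockout they were 15.5% to 22.6% and 19.1% to 25.3%. A fit without both parental replicate 1 and BRM knockout replicate 2 was chosen after seeing the listed genes. In it BRG1 knockout against parental had 6 genes higher (against 20.4% of all genes tested) with a median of -0.0066. BRM knockout against parental had 9 lower (against 13.3%), and BRG1 against BRM knockout had 6 higher (against 18.1%) with a median of 0.080. Without parental replicate 1 and BRG1 knockout replicate 3, 4 genes were higher in the BRG1 knockout (against 21.2%) and 7 in the BRM knockout (against 22.9%). The fit without BRG1 knockout replicates 1 and 2 leaves 1 library in that group. In it the lower counts in the BRM knockout and in BRG1 against BRM knockout also lay outside 1.5 times the reported ones. Limma with voom gave 2 higher in the BRG1 knockout (against 21.8%). The lower count in the BRM knockout was 8 with DESeq2 (against 19.7% of all genes) and 7 with voom (17.1%). It was also 7 with the GC content and length correction (18.2%), with that correction and the block (17.4%), and with only the 6 libraries compared (24.4%). The cause was not tested, beyond the fewer samples in the fits that leave libraries out.

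Replicate numbers did not pair the libraries: same-numbered libraries of different groups correlated at -0.08 to 0.17. With the replicate number as a block, the BRG1 knockout had 1 gene higher and 4 lower (against 20% and 21.1% of all genes tested). The BRM knockout had 4 and 4 (against 19.9% and 15.2%), and BRG1 against BRM knockout 3 and 6 (against 19.8% and 23%). With 3 libraries a group and a common biological coefficient of variation of 0.253, a call that was missed does not show an unchanged gene.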
